A study of Mus musculus with 61 samples.

Results

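The 35 genes described here encode the pore, auxiliary and related subunits of voltage-gated sodium and calcium channels, 11 for sodium channels and 24 for calcium channels. They were chosen by symbol from probe sets annotated to a single gene, Scn followed by a digit, Cacna, Cacnb or Cacng, without the epithelial Scnn genes, and they are 35 of the 18193 genes that the arrays name in this way. Together they have 85 probe sets, and each gene is represented by its brightest one, that of the highest mean over the 61 arrays. RNA was taken from the pituitary gland and from 4 brain regions, namely the hypothalamus, the hippocampus, the bnst (bed nucleus of the stria terminalis) and the pag (periaqueductal gray). The animals were 8-week-old wild-type males of the inbred strains C57BL/6J, FVB/NJ, DBA/2J, A/J, C3H/HeJ and 129S6/SvEvTac, and no group carried a transgene or received a treatment according to the labels. Each of the 30 groups of strain and region had 2 arrays, except C3H/HeJ bnst with 3, which makes 61 arrays. An array measured tissue of a single mouse in the hippocampus, of 1 or 2 mice in the hypothalamus and pag, of 2 or 3 in the bnst and of 5 in the pituitary gland.

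A voltage-gated sodium channel consists of a large alpha subunit, which forms the pore and carries the rising phase of the action potential, and of small beta subunits that modify its gating and surface level. A calcium channel has an alpha1 pore subunit, which sets its type (L, P/Q, N, R or T), and, outside the T type, a cytoplasmic beta and an extracellular alpha2delta subunit, which bring the pore to the surface and tune it. The gamma family takes its name from a subunit of the skeletal muscle calcium channel, and most of its brain members are known as auxiliary subunits of AMPA-type glutamate receptors. The 35 genes comprise 8 sodium alpha, 3 sodium beta, 4 L-type, 3 P/Q-, N- and R-type, 2 T-type, 3 calcium beta, 4 alpha2delta and 8 gamma genes.

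Signals are background-corrected intensities on the linear scale of the arrays, the array means lay between 180.5 and 200.5, and replicate arrays correlated with r of 0.937 to 0.988 on the log2 scale. Values below the 20th percentile of all values (a signal of 12.78) were raised to it before log2 was taken, and 4.96% of the channel gene values lay at or below it. Of the 35 genes, 22 were above this floor on all 61 arrays and 13 on some arrays only. Marker genes of hippocampal principal neurons, hypothalamic neurons, midbrain and brainstem neurons and pituitary endocrine cells were highest on the arrays of the matching label. The bnst arrays also carried thalamic and hypothalamic markers, as given beside the bnst results. Differences are signed log2 values, negative where the named region or strain was lower. In tissue of mixed cells, fewer cells of a type and less RNA per cell cannot be told apart.

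The promoter sequences of 5 channel genes are printed here because each gene is the one with the greatest called excess in a region among those higher there in all 6 strains: Scn7a in the pituitary gland, Cacng5 in the bnst, Cacng8 in the hippocampus, Scn9a in the hypothalamus and Scn4b in the pag. Each window holds 250 bases before and 50 after an annotated gene start in RefSeq (GRCm38.p6), read 5′ to 3′ on the gene's strand, and capitals mark matches on either strand to the TATA box word TATAAA, the GC box word GGGCGG, the CCAAT box word CCAAT or the cAMP response element TGACGTCA. None of these words contains another. The starts are those of the annotation, and whether the genes are transcribed from them in these tissues was not tested. The windows lie at chr2:66784861-66785160, minus strand, for Scn7a, at chr11:107915006-107915305, minus strand, for Cacng5, at chr7:3393792-3394091, plus strand, for Cacng8, at chr2:66634913-66635212, minus strand, for Scn9a, and at chr9:45138374-45138673, plus strand, for Scn4b.
Scn7a promoter: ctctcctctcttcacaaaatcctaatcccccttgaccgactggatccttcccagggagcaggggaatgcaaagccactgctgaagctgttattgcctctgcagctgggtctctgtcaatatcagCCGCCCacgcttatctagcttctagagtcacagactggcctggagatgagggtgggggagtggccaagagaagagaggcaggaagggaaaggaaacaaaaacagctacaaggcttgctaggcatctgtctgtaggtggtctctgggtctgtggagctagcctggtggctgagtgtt
Cacng5 promoter: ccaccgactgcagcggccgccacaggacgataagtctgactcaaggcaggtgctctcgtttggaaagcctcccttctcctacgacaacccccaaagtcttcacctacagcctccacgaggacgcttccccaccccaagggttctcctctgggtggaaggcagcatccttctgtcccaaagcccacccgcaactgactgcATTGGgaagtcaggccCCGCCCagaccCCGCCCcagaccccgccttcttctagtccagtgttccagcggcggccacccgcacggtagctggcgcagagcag
Cacng8 promoter: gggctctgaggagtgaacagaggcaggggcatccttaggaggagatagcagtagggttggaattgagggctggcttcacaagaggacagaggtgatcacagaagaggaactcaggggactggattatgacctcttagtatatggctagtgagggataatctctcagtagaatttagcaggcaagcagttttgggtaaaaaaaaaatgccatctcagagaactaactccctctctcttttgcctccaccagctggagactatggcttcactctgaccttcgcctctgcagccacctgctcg
Scn9a promoter: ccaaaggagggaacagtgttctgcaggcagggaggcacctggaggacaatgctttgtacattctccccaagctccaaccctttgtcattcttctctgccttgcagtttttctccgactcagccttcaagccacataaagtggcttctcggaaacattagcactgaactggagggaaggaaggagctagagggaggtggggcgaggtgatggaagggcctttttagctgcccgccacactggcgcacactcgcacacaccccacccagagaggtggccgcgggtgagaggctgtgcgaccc
Scn4b promoter: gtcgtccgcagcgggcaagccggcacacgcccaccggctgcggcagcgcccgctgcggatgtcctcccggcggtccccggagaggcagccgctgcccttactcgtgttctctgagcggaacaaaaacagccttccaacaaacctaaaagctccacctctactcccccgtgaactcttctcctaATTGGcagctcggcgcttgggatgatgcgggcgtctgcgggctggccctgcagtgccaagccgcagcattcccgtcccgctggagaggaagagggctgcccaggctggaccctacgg
The Cacng5 window holds 2 GC boxes and 1 CCAAT, the Scn7a window 1 GC box and the Scn4b window 1 CCAAT, whereas those of Cacng8 and Scn9a hold none of these words. Of the 32851 promoters of the table, 35.7% hold GGGCGG, 37.4% CCAAT, 13.6% TATAAA and 1.79% TGACGTCA. The table matched 27 of the 35 channel genes, with 37 promoters, and of these 37 promoters 37.8% hold GGGCGG, 24.3% CCAAT, 5.41% TATAAA and 0 TGACGTCA. The windows differ in base composition, with 26 CpG in that of Scn4b, 17 in that of Cacng5, 9 in that of Scn9a, 3 in that of Scn7a and 2 in that of Cacng8, beside a median of 7 over all promoters.

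The channel genes differed mainly between regions. The region was called for 33 of the 35 genes (limma F test, adjusted p under 0.05), beside 78.3% of all genes and 71.7% of all probe sets. The strain was called for 16 of them, beside 42.6% of all genes and 39.2% of all probe sets, and the dependence of strain differences on region for 6, beside 12.6% and 11.3%. Scn10a, a channel of pain-sensing neurons, and Cacna2d4, an alpha2delta subunit known from the retina, were the 2 genes without a call for region. Over 60 arrays, leaving out the third C3H/HeJ bnst array, region took a median of 90.2% of the variance of a channel gene's log2 signal, strain 2.69%, their interaction 4.64% and the differences between arrays of a group 2.35%, whereas over all genes the medians were 49.4%, 7.63%, 16.9% and 16.1%. Like the F test for region, these shares cover all 5 regions, including the pituitary gland. Shares over the brain arrays alone were not computed. The share of region was greatest for Scn1a (98.5%), Scn2a (98.8%), Scn3b (98.0%), Cacna1e (98.5%) and Cacna2d3 (98.8%), all with their lowest mean signal in the pituitary gland. It was small for several genes whose signal was low in these tissues, such as Scn10a (1.98%), Cacna1s (16.1%), the pore of skeletal muscle, and Cacng1 (16.4%), the gamma subunit of skeletal muscle. It was also small for Cacng7 (17.7%), whose mean signal was 139.9.

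**Figure D1:**
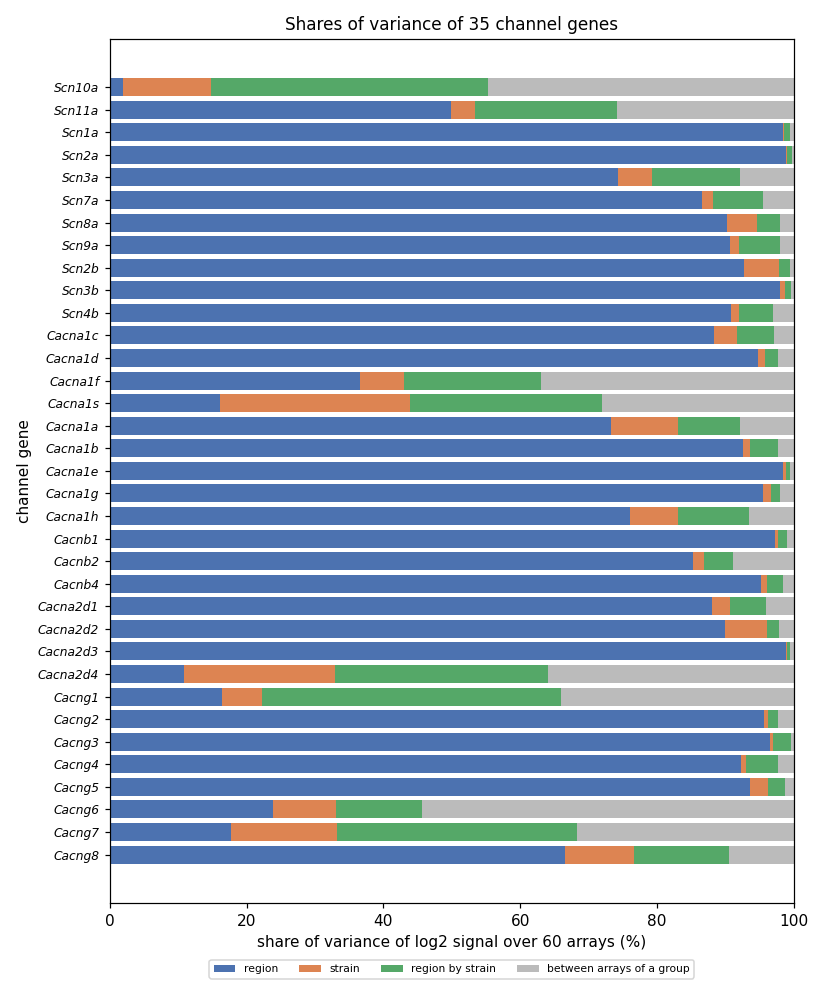
Stacked bars give, for each of the 35 channel genes, the share (%) of the variance of log2 signal over 60 arrays that lies between the 5 regions (the pituitary gland among them), between strains, in their interaction and between arrays of a group. Region takes nearly the whole bar for most genes (median 90.2%) and under 20% for Scn10a, Cacna1s, Cacna2d4, Cacng1 and Cacng7.

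The pituitary gland stood apart from the 4 brain regions. Of the 35 genes, 25 were lower there and 7 higher than the mean of the brain regions, while 3 had no call, and the median log2 difference was -1.42, beside 0.11 over all genes. Over all genes, 29.1% were lower and 42.9% higher in the pituitary gland. By channel group, 5 of 8 sodium alpha genes, 3 of 3 sodium beta genes, 3 of 3 P/Q-, N- and R-type genes, 2 of 2 T-type genes, 3 of 3 calcium beta genes, 2 of 4 alpha2delta genes and 5 of 8 gamma genes were lower, and the L-type group was divided, with 2 higher and 2 lower. The summed signal of 6 neuron markers was 3967 to 5910 on pituitary arrays and 12801 to 19565 on brain arrays, and its part in these differences was not tested.

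Scn1a and Scn2a, which encode the alpha subunits of many inhibitory and excitatory neurons, were among the genes with the greatest deficit. Scn1a signals were 3.44 to 39.4 (median 14.6) on the 12 pituitary arrays, against 366 to 1143 (median 570.3) on the 49 brain arrays, so that the groups did not overlap, and the log2 difference was -5.17 ± 0.07, adjusted p = 4.08e-37 (SE, limma). For Scn2a the pituitary signals were 69.1 to 129.7 (median 103) and the brain signals 816 to 1696 (median 1265), a log2 difference of -3.67 ± 0.04, adjusted p = 4.39e-40. Both genes were lower in the pituitary gland of all 6 strains. Cacna1e, the pore of R-type channels, fell near or below the floor on pituitary arrays, with signals of -7.01 to 19.5 (median 8.97) against 152 to 1001 (median 396) in the brain, and its log2 difference of -4.89 ± 0.08, adjusted p = 1.02e-34, is reduced in size by the floor. The AMPA receptor auxiliary subunits Cacng2, known as stargazin, and Cacng3 differed by -3.65 ± 0.10, adjusted p = 7.91e-28, and -3.50 ± 0.05, adjusted p = 5.15e-37, respectively. Cacna2d3, an alpha2delta subunit, had signals of 40.3 to 57.8 (median 48.7) in the pituitary gland and 255 to 871 (median 473) in the brain, again without overlap. Its log2 difference was -3.26 ± 0.04, adjusted p = 8.3e-37. Of the remaining lower genes, Cacna1g, Cacnb4, Scn3b and Scn4b had log2 differences between -3.26 and -3.08, and Scn2b, the other sodium beta gene, differed by -2.08.

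The genes that were higher in the pituitary gland were 2 sodium alpha, 2 L-type, 1 alpha2delta and 2 gamma genes. Cacna1d, an L-type pore known from endocrine and pacemaking cells, had signals of 408 to 546 (median 465) on pituitary arrays and 142 to 250.1 (median 195) on brain arrays. All pituitary arrays lay above all brain arrays, and the log2 difference was 1.28 ± 0.04, adjusted p = 2.14e-25. Cacna1c, the other widely expressed L-type pore, went the opposite way with a log2 difference of -1.03 ± 0.06, adjusted p = 3.08e-18, on pituitary signals of 40.8 to 101 (median 71.4). Scn7a, a sodium channel relative that senses extracellular sodium and is known from glia of sodium-sensing brain sites, had signals of 155 to 319.7 (median 225) in the pituitary gland, which overlapped those of the hypothalamus, 109.8 to 172 (median 146), and of no other brain region. It differed from the brain mean by 1.49 ± 0.08, adjusted p = 4.89e-19. Scn11a, known from pain-sensing neurons, was low throughout, with signals of 37.6 to 128 (median 67.2) against 7.65 to 62 (median 29.8) in the brain, overlapping groups and a log2 difference of 1.26 ± 0.17, adjusted p = 4.68e-08. Cacna1f, the L-type pore of photoreceptors, had a log2 difference of 0.99 ± 0.18, adjusted p = 7.92e-06, also on low signals (28.3 to 65.2 (median 44.5)). The gamma genes Cacng6 and Cacng1 differed by 0.48 and 0.55. Cacna2d1, an alpha2delta subunit bound by gabapentin, was nearly even, with a log2 difference of 0.22 ± 0.03, adjusted p = 6.86e-07, and lost its call when arrays were scaled to the same median (0.08), a scaling that moved the median of all genes from 0.11 to 0.01. Another of its probe sets was lower in the pituitary gland, by -0.24. Among 23 measured partner genes of these channels, which organize the axon initial segment, the release site or channel traffic, 16 were lower and 4 higher in the pituitary gland. Over all genes, 29.1% were lower and 42.9% higher there. Snap25 and Syt1 are both partner genes and neuron markers. The release-site scaffold Rims1 was lower (log2 difference -4.20), and the small GTPases Gem (1.74) and Rem2 (1.77), which inhibit calcium channels, were higher.

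**Figure D2:**
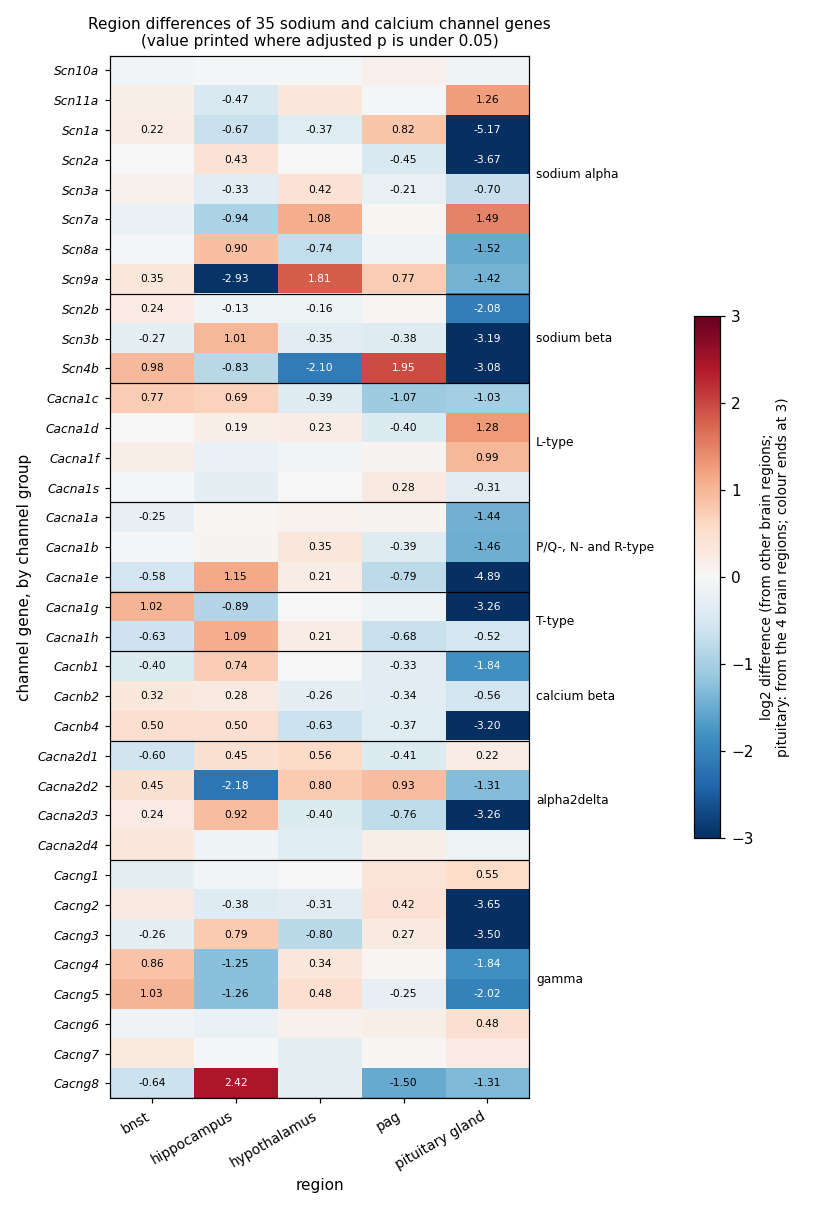
Colour gives the log2 difference of each channel gene in each region, from the mean of the other 3 brain regions or, for the pituitary gland, from the mean of the 4 brain regions, with the value printed where adjusted p is under 0.05. The pituitary column is mostly blue, with 25 genes lower and 7 higher, whereas each brain region has calls in both directions.

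The hippocampus had the most calls of the brain regions. Compared with the mean of the other 3 brain regions, 14 channel genes were higher there and 12 lower, and over all genes 18.1% were higher and 31.1% lower. The sodium channel genes were mostly lower (7 of 11, with 3 higher) and the calcium channel genes more often higher (11 of 24, with 5 lower), including 3 of 3 calcium beta genes. The summed signal of 5 markers of hippocampal principal neurons was 4124 to 5884 in the hippocampus and 331 to 795 in the other brain regions, and the part of cell composition in these differences was not tested.

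Cacng8, an auxiliary subunit of hippocampal AMPA receptors, had signals of 20.7 to 232 (median 147) in the hippocampus, -7.92 to 68.2 (median 33.3) in the hypothalamus, -2.91 to 70.5 (median 15.9) in the bnst and -10.3 to 28.9 (median 10.2) in the pag. The hippocampal arrays were higher in all 6 strains by 2.42 ± 0.19, adjusted p = 3.82e-13, on the log2 scale, but the 2 arrays of A/J gave 23.7 and 162 and those of C3H/HeJ 20.7 and 145, so that 1 array of each overlapped with the other regions. Leaving out an array moved the difference between 2.18 and 2.65. Cacna1e, the R-type pore, was highest in the hippocampus, with signals of 606 to 1001 (median 736) that all exceeded those of the other regions, and a log2 difference of 1.15 ± 0.08, adjusted p = 1.56e-14. Cacna1h, a T-type pore, had signals of 303 to 558 (median 383) and a log2 difference of 1.09 ± 0.07, adjusted p = 5.09e-15. The other measured T-type pore, Cacna1g, was lower in the hippocampus than in the other brain regions by -0.89 ± 0.09, adjusted p = 2.05e-10, with signals of 169 to 275 (median 230.3). The sodium channel beta gene Scn3b (1150.4 to 1479 (median 1358)) did not overlap with any other region, where the highest signal was 870.2, and differed by 1.01 ± 0.04, adjusted p = 1.38e-20. Scn8a, the alpha subunit of mature axon initial segments and nodes of Ranvier, had signals of 1328 to 2168 (median 1678) and a log2 difference of 0.90 ± 0.05, adjusted p = 1.47e-17, and overlapped only with the bnst, where signals reached 1570.4. Cacna2d3 was higher by 0.92 ± 0.05, adjusted p = 7.49e-19. The calcium beta genes Cacnb1, Cacnb4 and Cacnb2 were higher by 0.74, 0.50 and 0.28.

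By the brightest probe sets, Scn9a, known for its role in pain sensation, was the channel gene with the greatest hippocampal deficit. Its signals were 4.02 to 15.6 (median 7.45) in the hippocampus, against a floor of 12.78, and at least 48.8 on every other brain array, a log2 difference of -2.93 ± 0.10, adjusted p = 3.07e-24. With the mean over all probe sets of Scn9a, the difference was -1.27. Cacna2d2, an alpha2delta subunit, was lower by -2.18 ± 0.07, adjusted p = 4.47e-24, with hippocampal signals of 73.5 to 197 (median 124) that did not overlap with those of the other brain regions, from 314 upwards. Of the 4 alpha2delta genes, therefore, Cacna2d1 and Cacna2d3 were higher and Cacna2d2 lower in the hippocampus. The gamma genes Cacng5 and Cacng4 were lower by -1.26 ± 0.06, adjusted p = 2.42e-20, and by -1.25 ± 0.06, adjusted p = 1.29e-18, respectively, and Scn7a by -0.94 ± 0.08, adjusted p = 1.96e-12. Of the 23 partner genes, 14 were higher in the hippocampus, among them the calcium channel adaptor Stac2 (log2 difference 1.50), the channel-inhibiting GTPase Rem2 (1.30) and the sodium channel binding factors Fgf11 (1.20) and Fgf13 (1.15), and 6 were lower. Over all genes, 18.1% were higher and 31.1% lower.

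In the hypothalamus, 11 channel genes were higher and 11 lower than in the other brain regions, beside 21.6% and 14.8% of all genes. Scn9a had signals of 103 to 192 (median 153), of which the lower ones overlapped with the pag, 60.3 to 138 (median 84.4). It was higher in the hypothalamus of all 6 strains by 1.81 ± 0.10, adjusted p = 3.21e-17. Scn7a signals of 109.8 to 172 (median 146) gave a log2 difference of 1.08 ± 0.08, adjusted p = 2.35e-13. Scn3a, an alpha subunit best known from the embryonic brain, was higher by 0.42 ± 0.06, adjusted p = 1.54e-07. Among the alpha2delta genes, Cacna2d2 and Cacna2d1 were higher, by 0.80 ± 0.07, adjusted p = 3.94e-11, and 0.56 ± 0.04, adjusted p = 2.18e-15, respectively. Cacna1b, the N-type pore that feeds transmitter release, was higher by 0.35 ± 0.05, adjusted p = 1.78e-07, and the gamma gene Cacng5 by 0.48 ± 0.06, adjusted p = 1.46e-08. The hypothalamic arrays also held a summed signal of 594 to 7846 (median 1983) from 7 pituitary hormone genes, beside 44820 to 63897 in the pituitary gland. Such signal was not confined to the hypothalamus. The sum was 173 to 6405 (median 399) in the pag, 105 to 4322 (median 490) in the bnst and 133 to 3060 (median 214) in the hippocampus. The part of attached pituitary tissue was not tested.

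All 3 sodium beta genes were lower in the hypothalamus. Scn4b, the beta subunit known for resurgent sodium current in fast-spiking neurons, had the lowest signals of the brain there, 20.3 to 157 (median 56.9), and a log2 difference of -2.10 ± 0.16, adjusted p = 4.19e-13. Scn3b and Scn2b were lower by -0.35 and -0.16 on the log2 scale. Scn8a, the alpha subunit that carries resurgent current, was lower by -0.74 ± 0.05, adjusted p = 1.78e-14, with signals of 601 to 942 (median 712). Cacng3 differed by -0.80 ± 0.05, adjusted p = 1.42e-15. Cacnb4, the calcium beta subunit whose loss gives the lethargic mouse, was lower by -0.63 ± 0.08, adjusted p = 5.79e-08. Smaller deficits were those of Cacna2d3 (-0.40 ± 0.05, adjusted p = 8.29e-09) and Cacna1c (-0.39 ± 0.06, adjusted p = 1.53e-06). Of the partner genes 14 of 23 were lower and 3 higher, one of these the channel-inhibiting GTPase Rrad (log2 difference 2.17). Over all genes, 14.8% were lower and 21.6% higher.

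In the pag, 7 channel genes were higher and 15 lower than in the other brain regions, and over all genes 26.2% were higher and 16.3% lower. The lower genes were mostly those of calcium channels (12 of 24, with 4 higher), and included 3 of 3 calcium beta genes. Scn4b signals were 274 to 677 (median 402) in the pag and 95.9 to 504 (median 326) in the bnst, and these overlapped, but the pag signals lay above all hippocampal and hypothalamic arrays. The gene was higher in the pag of all 6 strains by 1.95 ± 0.16, adjusted p = 2.38e-12. Scn1a, known from fast-spiking inhibitory neurons, was also highest in the pag, with signals of 846 to 1143 (median 921) that overlapped only with those of the bnst, 512 to 908 (median 691), and a log2 difference of 0.82 ± 0.07, adjusted p = 1.16e-11. Cacna2d2 was higher by 0.93 ± 0.07, adjusted p = 6.84e-13, Scn9a by 0.77 ± 0.10, adjusted p = 4.17e-08, and Cacng2 by 0.42 ± 0.10, adjusted p = 0.00111. Midbrain and brainstem markers, 4 genes, summed to 1732 to 4221 in the pag and to at most 439 in the other brain regions.

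Among the genes lower in the pag, Cacng8 was near or below the floor, with signals of -10.3 to 28.9 (median 10.2) and a log2 difference of -1.50 ± 0.19, adjusted p = 7.03e-08. Cacna1c, the main L-type pore of neurons and heart, had pag signals of 63.4 to 106 (median 84.6), below all arrays of the bnst and hippocampus but overlapping with the hypothalamus, and differed by -1.07 ± 0.06, adjusted p = 5.93e-17. Cacna1e was lower by -0.79 ± 0.08, adjusted p = 6.99e-10, Cacna2d3 by -0.76 ± 0.05, adjusted p = 9.75e-16, and Cacna1h by -0.68 ± 0.07, adjusted p = 2.8e-09. Scn2a was lower by -0.45 ± 0.04, adjusted p = 2.71e-11, on signals of 816 to 1194 (median 998), so that the extremes of the brain were exchanged between these genes, with Scn1a highest in the pag and lowest in the hippocampus and Scn2a highest in the hippocampus and lowest in the pag. Of the 23 partner genes 11 were lower and 5 higher, beside 16.3% and 26.2% of all genes.

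**Figure D3:**
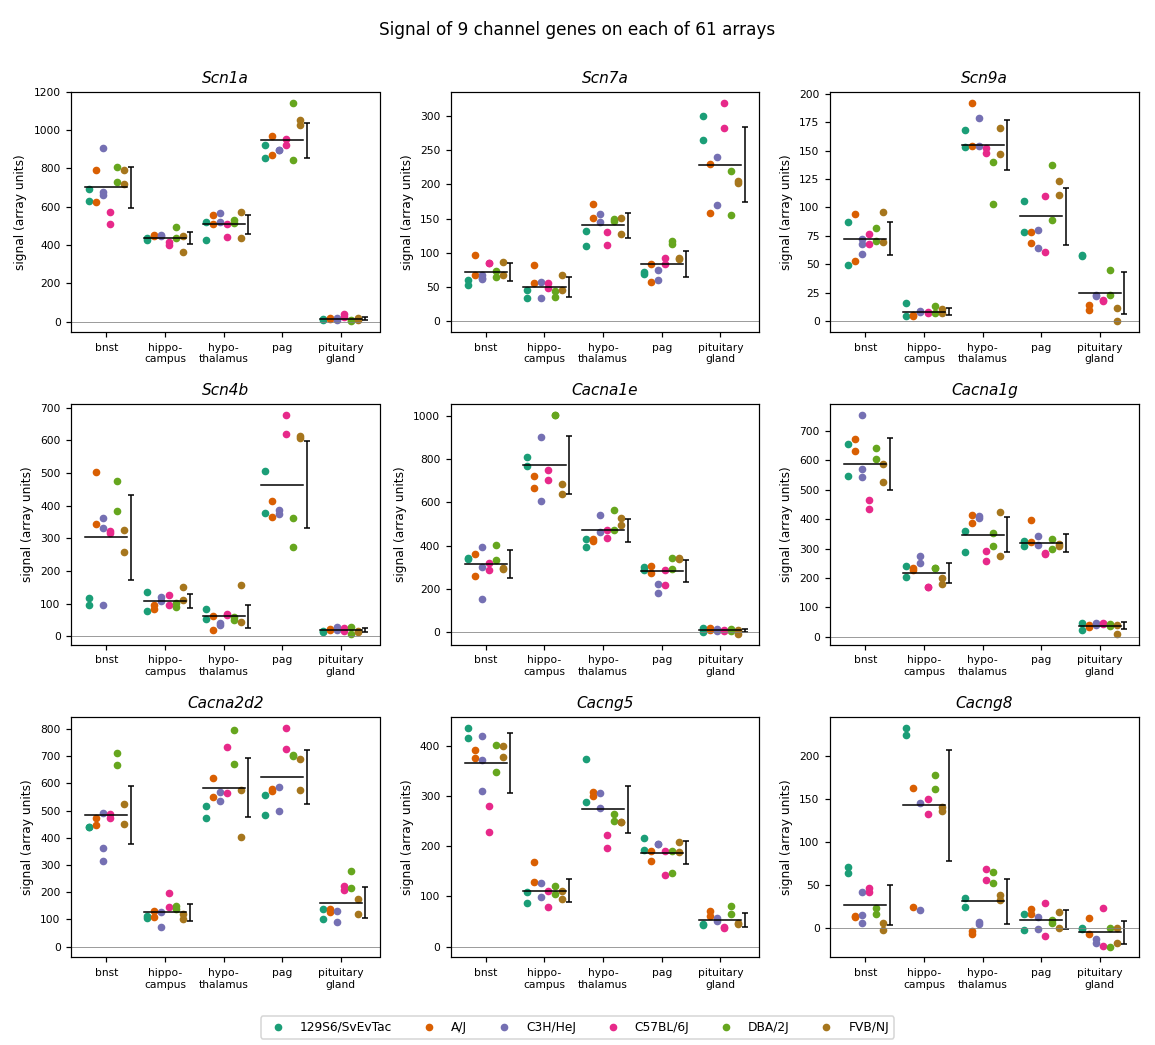
Each point is the signal of 1 array (array units, linear axis) in each of the 5 regions, coloured by strain, for 9 channel genes, and black bars give the mean and SD of a region. Scn1a and Cacna1e are near 0 in the pituitary gland, Scn7a is highest there, Scn9a in the hypothalamus, Scn4b in the pag, Cacna1g and Cacng5 in the bnst, and Cacng8 in the hippocampus with 2 low arrays.

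In the bnst, 12 channel genes were higher and 8 lower than in the other brain regions, beside 11.3% and 12% of all genes. Cacna1g, the T-type pore known for burst firing of thalamic neurons, had signals of 436 to 754 (median 587), above every array of the other regions, where the highest signal was 424. The log2 difference was 1.02 ± 0.09, adjusted p = 3.09e-11. The gamma genes Cacng5 (228 to 435 (median 377)) and Cacng4 (428 to 637 (median 499)) were higher by 1.03 ± 0.06, adjusted p = 6.03e-17, and 0.86 ± 0.06, adjusted p = 3.02e-13, and overlapped with the hypothalamus but not with the pag or hippocampus. Cacna1c was higher by 0.77 ± 0.06, adjusted p = 5.3e-13, the beta subunit Cacnb4 by 0.50 ± 0.08, adjusted p = 6.7e-06, and Cacna2d2 by 0.45 ± 0.07, adjusted p = 6.8e-06. Scn4b differed by 0.98 ± 0.16, adjusted p = 8.26e-06, with 5 of 6 strains higher, and its signals had a wide spread (95.9 to 504 (median 326)), the low ones being both arrays of 129S6/SvEvTac and 1 of C3H/HeJ. Lower in the bnst were Cacna1h (-0.63 ± 0.07, adjusted p = 2.1e-08), Cacna2d1 (-0.60 ± 0.03, adjusted p = 3.48e-16), Cacna1e (-0.58 ± 0.08, adjusted p = 7.61e-07) and the beta subunit Cacnb1 (-0.40 ± 0.04, adjusted p = 9.6e-09). Scn3b was lower by -0.27 and Cacna1a, the P/Q-type pore, by -0.25. The call of Cacna1a was lost without any of 6 bnst arrays (replicate 1 of 129S6/SvEvTac, C3H/HeJ, C57BL/6J, DBA/2J or FVB/NJ, or replicate 2 of A/J), with -0.21 without the FVB/NJ array, with arrays scaled to the same median (-0.22) and with the mean over all probe sets of a gene (-0.07). Of the 23 partner genes 5 were higher and 5 lower, beside 11.3% and 12% of all genes.

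Markers of other cells also differed in the bnst, and 3 channel genes were set beside them across the bnst arrays. For the other channel genes called in the bnst this was not examined. All 5 thalamic markers were higher in the bnst, with a summed signal of 4218 to 7044 against at most 3452 in the other brain regions. All 4 measured hypothalamic markers, 4 measured striatal markers and 4 choroid plexus markers were also called higher there than the mean of the other brain regions. Their bnst sums were 4685 to 10834, 413 to 1718 and 183 to 9627. The hypothalamic sum was higher still in the hypothalamus (10963 to 18447). The striatal and choroid plexus sums overlapped with the other brain regions, where they reached 976 in the hypothalamus and 6426 in the hippocampus, respectively. Across the 13 bnst arrays, Cacna1g rose with the thalamic sum (Pearson r = 0.742, permutation p = 0.00412, adjusted 0.0185 over 9 relations, Spearman rho = 0.753, permutation p = 0.0039, adjusted 0.0351) and r was 0.880 without the 2 arrays farthest from the median. Scn4b rose with the striatal sum (r = 0.787, permutation p = 0.00102, adjusted 0.00918, rho = 0.709, permutation p = 0.0078, adjusted 0.0351, and r = 0.925 without the farthest 2). Cacng5 and the thalamic sum gave r = 0.561 (permutation p = 0.0208, adjusted 0.0623, rho = 0.654, permutation p = 0.0185, adjusted 0.0555), and r = 0.741 without the farthest 2. The other 6 relations of these 3 genes with the thalamic, striatal and hypothalamic sums had |r| of at most 0.419 and adjusted p of at least 0.297. The permutations above moved arrays freely across strains, although each strain gave 2 or 3 of the arrays. Arrays of a strain thus counted as independent, and these p values may be too small. These genes and lists were chosen after their values were seen, as were the values within strains. The adjustment over 9 relations does not cover that choice. On deviations from the strain means (13 arrays, 7 degrees of freedom, two-sided exact permutation test over the 192 orders of arrays within strains), Cacna1g and the thalamic sum gave r = 0.906 with exact p = 0.00521, the smallest these orders can give, adjusted 0.0469 over 9 relations. The arrays of each strain had the same order in both values. The 3 C3H/HeJ arrays spread most and weigh most in this r, with thalamic sums of 4518, 5251 and 7044. Their Cacna1g signals were 545, 571 and 754. The relation within strains was not run without them. Scn4b and the striatal sum gave 0.391 (exact p = 0.589, adjusted 0.757), and Cacng5 and the thalamic sum gave 0.676 (exact p = 0.161, adjusted 0.719). With 7 degrees of freedom, the test cannot decide whether the relations of Scn4b and Cacng5 hold within strains.

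Channel genes that adjoin each other on a chromosome were compared over the 24 groups of strain and brain region, as a description. In the RefSeq gene order, Scn9a and Scn7a on chromosome 2 are neighbours with 0 protein-coding genes between them, and their group means correlated with r = 0.850 (rho = 0.923), both being highest of the brain in the hypothalamus and lowest in the hippocampus. Cacng4 and Cacng5, neighbours on chromosome 11, had r = 0.905 (rho = 0.866), both highest in the bnst and lowest of the brain in the hippocampus. Scn1a and Scn9a, also neighbours, had r = 0.481, whereas Scn1a and Scn2a, with 3 genes between them, had r = -0.743. The neighbours Scn2b and Scn4b on chromosome 9 gave 0.158, Cacng1 and Cacng4 gave -0.110, and Cacng8 with Cacng7 and with Cacng6 on chromosome 7 gave -0.104 and -0.317. The points of a pair share arrays, and 4 regions set most of their spread.

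The region differences were mostly shared by the other probe sets of a gene, except in the bnst. The 26 genes with more than 1 probe set have 50 others, and of 187 region values for which the brightest probe set was called, the other was called in 121, in the same direction in 118 and in the opposite direction in 3. The 3 exceptions were Cacna2d1 in the pituitary gland, Cacna1e in the hypothalamus (0.21 with the brightest probe set and -0.66 with the other) and Cacng8 in the pag (-1.50 and 0.42). The other Cacng8 probe set had no call in the hippocampus (-0.30). By region, the other probe set was called in 35 of 47 such values in the pituitary gland and 29 of 40 in the hippocampus. It was called in 24 of 36 in the hypothalamus, 20 of 34 in the pag and 13 of 30 in the bnst. For the 9 genes with 1 probe set, the mean over all probe sets is the brightest one itself, so their values could not move. With the mean over all probe sets of a gene in place of the brightest one, 59 named region values kept their direction, but 19 moved by over 1.5 times. Among these, Scn1a and Cacna1e in the pituitary gland became -3.27 and -2.84, Scn9a and Cacna2d2 in the hippocampus -1.27 and -1.03, Cacng8 in the hippocampus 1.06, Scn9a in the hypothalamus 0.97, and Cacna2d2 in the bnst lost its call (0.22). With the floor at the 40th percentile, Cacna1f in the pituitary gland became 0.38, Scn9a -1.54 in the hippocampus and 0.31 in the pag, and Cacng8 in the pag -0.80.

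Differences between strains were smaller than between regions. Compared with the mean of the other 5 strains, 9 of the 35 channel genes were called in 129S6/SvEvTac (5 higher, beside 19.8% of all genes called), 10 in C57BL/6J (4 higher, beside 23.4%), 5 in A/J (3 higher, beside 15%), 5 in C3H/HeJ (3 higher, beside 11.1%), 3 in FVB/NJ (1 higher, beside 11.9%) and 3 in DBA/2J (2 higher, beside 14.5%). With arrays scaled to the same median, the split of higher and lower genes became 1 and 2 in A/J, 0 and 2 in FVB/NJ, 7 and 1 in DBA/2J, and 2 and 8 in C57BL/6J. No called strain difference exceeded 0.69 in size on the log2 scale. The other probe sets of a gene shared fewer of the strain differences: of 66 values for which the brightest probe set was called, the other was called in 19, in the same direction in 9 and in the opposite direction in 10. The opposite calls were those of Scn2b, Scn2a, Scn3b and Cacna2d1 (2 probe sets) in C57BL/6J, Scn8a and Cacna2d2 in C3H/HeJ, Scn2b in 129S6/SvEvTac, Cacng8 in A/J and Cacna2d1 in DBA/2J. Of the 17 strain values named below, 13 lost their call or turned under at least 1 alternative of processing, whereas this held for 3 of 59 region values. These counts are not on equal terms, because leaving out the pituitary arrays cannot change a brain region difference but can change a strain difference.

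**Figure D4:**
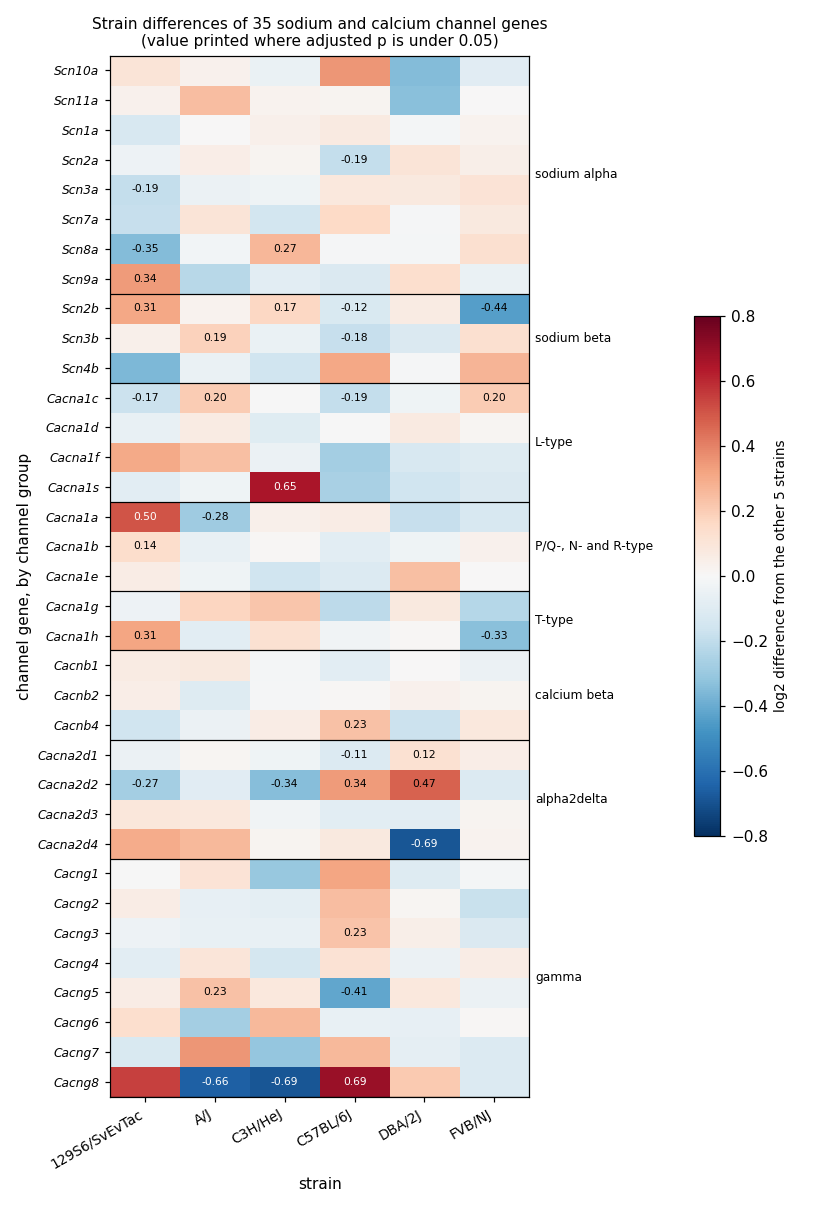
Colour gives the log2 difference of each channel gene in each strain from the mean of the other 5 strains, with the value printed where adjusted p is under 0.05. Most cells hold no call, and the printed values lie between -0.69 and 0.69.

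Cacna1a, the P/Q-type pore of the presynaptic terminal, was higher in 129S6/SvEvTac by 0.50 ± 0.09, adjusted p = 9.92e-05, with a mean signal of 165 in the hypothalamus, where the other strains had 86.5 (FVB/NJ) to 128 (C57BL/6J). In A/J it was lower by -0.28 ± 0.09, adjusted p = 0.0313, a call that was lost without any of 6 A/J arrays (bnst 2, hippocampus 1 or 2, hypothalamus 1, pag 1 or pituitary gland 1), with -0.25 without bnst 2. Both held in all 5 regions, and the other probe sets of Cacna1a had no call in either strain. With the mean over all probe sets neither was called (0.17 in 129S6/SvEvTac and -0.09 in A/J), and the A/J call was also lost with the floor at the 40th percentile, with unlogged signals and without the pituitary arrays (-0.18). In 129S6/SvEvTac, Scn8a was lower by -0.35 ± 0.05, adjusted p = 3.79e-06, and Cacna1h higher by 0.31 ± 0.08, adjusted p = 0.00317, in all 5 regions, but Cacna1h had no call with the mean over probe sets (0.15). The hippocampal Scn8a signals of 129S6/SvEvTac were 1328 and 1392, against 2035 and 2168 in C3H/HeJ. In C3H/HeJ the brightest Scn8a probe set was called higher (0.27) and another lower (-0.31). In A/J, Scn3b was higher by 0.19 ± 0.05, adjusted p = 0.00404, and Cacna1c by 0.20 ± 0.06, adjusted p = 0.0207. Both calls were lost with arrays scaled to the same median (0.17 and 0.19), with unlogged signals, with the mean over probe sets (0.03 and 0.065) and without the pituitary arrays (0.11 and 0.13), and that of Cacna1c also without A/J bnst 1, hypothalamus 2, pag 1 or pituitary gland 2, with 0.16 without bnst 1.

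Cacna2d2 separated strains most among the alpha2delta genes (adjusted p of the strain F test 4.48e-07). It was higher in DBA/2J by 0.47 ± 0.08, adjusted p = 1.43e-05, and lower in C3H/HeJ by -0.34 ± 0.07, adjusted p = 0.00115, in all 5 regions. In the bnst the DBA/2J signals were 666 and 710.4 and the 3 C3H/HeJ signals lay between 314 and 490.0, without overlap. With the mean over probe sets the DBA/2J value fell to 0.038 without a call and the C3H/HeJ value turned to 0.0185, and another Cacna2d2 probe set, with a mean signal below the floor, was called higher in C3H/HeJ (0.41). Cacna2d1 was higher in DBA/2J by only 0.12 ± 0.04, adjusted p = 0.0223, and the call was lost without any of 5 DBA/2J arrays (bnst 2, hippocampus 2, hypothalamus 2, pag 1 or pituitary gland 2), with 0.09 without hypothalamus 2, as well as with quantile normalization (0.08) and without the pituitary arrays (0.12). Another probe set of Cacna2d1 went the opposite way in DBA/2J (-1.12), and the mean over probe sets was -0.22.

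Cacng8 was lower in C3H/HeJ by -0.69 ± 0.20, adjusted p = 0.0175, and higher in C57BL/6J by 0.69 ± 0.20, adjusted p = 0.0106, on signals that lay around the floor outside the hippocampus. The calls were lost without C3H/HeJ hippocampus 2 (-0.41) and without C57BL/6J pag 2 (0.58), and both with unlogged signals and with the floor at the 40th percentile (-0.30 and 0.20). Cacng5 was lower in C57BL/6J by -0.41 ± 0.06, adjusted p = 1.26e-06, in all 5 regions, with bnst signals of 228 and 279.6, below the bnst arrays of all other strains. Scn2a was lower in C57BL/6J by -0.19 ± 0.04, adjusted p = 0.00095, but another probe set was called higher there (0.63), and the mean over probe sets, -0.0030, had no call. Its value was -0.29 with arrays scaled to the same median and -0.12 without the pituitary arrays. In C3H/HeJ, Cacna1s, the pore of skeletal muscle, differed by 0.65 ± 0.11, adjusted p = 5.22e-05, although its highest signal there was only 45.9, and with the floor at the 40th percentile the difference was 0.0561. In FVB/NJ, Cacna1h was lower by -0.33 ± 0.08, adjusted p = 0.00256, and Cacna1c higher by 0.20 ± 0.06, adjusted p = 0.0248. The call of Cacna1h was lost with unlogged signals and without the pituitary arrays (-0.12), and its value was -0.17 with the mean over probe sets. That of Cacna1c was lost with arrays scaled to the same median (0.21), with unlogged signals, without the pituitary arrays (0.14), with the mean over probe sets, where the value turned to -0.0187, and without any of 5 FVB/NJ arrays (bnst 2, hippocampus 1, hypothalamus 1, pag 1 or pituitary gland 1), with 0.17 without hypothalamus 1.

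Scn2b had the smallest p of the strain F test among the channel genes (adjusted p = 1.13e-11), and its probe sets disagreed. By the brightest probe set, Scn2b was lower in FVB/NJ by -0.44 ± 0.04, adjusted p = 2.78e-11, and higher in 129S6/SvEvTac by 0.31 ± 0.04, adjusted p = 8.9e-08. In the pag the mean signals were 733 in FVB/NJ, 1359 in 129S6/SvEvTac and 919 to 1288 in the other 4 strains. A second probe set was low in both of these strains. Its signals were 52.7 to 95.6 (median 62.8) in 129S6/SvEvTac and 43.6 to 123 (median 54.1) in FVB/NJ, whereas the other 4 strains had medians of 1081 to 1149 and lowest signals of 183 to 268, so that the groups did not overlap. Its log2 differences were -2.95 in 129S6/SvEvTac, -2.97 in FVB/NJ and between 1.39 and 1.56 in the other strains. These 2 probe sets therefore gave calls in opposite directions in 129S6/SvEvTac and in C57BL/6J, where the brightest one was called lower (-0.12) and the second higher (1.46). With the mean over probe sets, the FVB/NJ value was -1.10. What the second probe set detects was not tested.

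**Figure D5:**
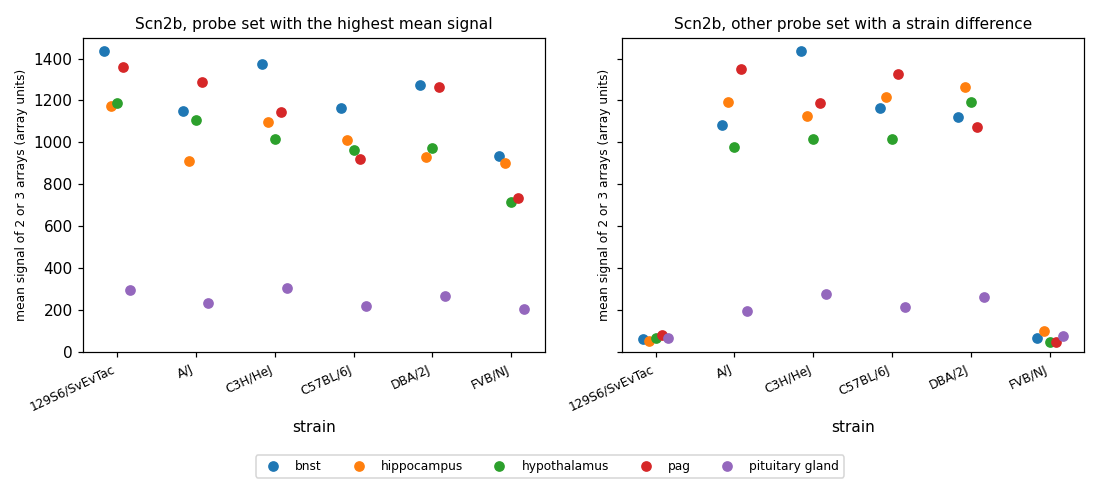
Points are mean signals (array units) of 2 or 3 arrays for Scn2b in each strain and region, from the brightest probe set (left) and from a second probe set (right). On the left all strains have brain signals of 718 or more, and on the right 129S6/SvEvTac and FVB/NJ lie at 99.3 or less in every region.

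Few calls were made for 3 other members. Scn10a had region means between 33.6 and 39.3 and no call in any region or strain. Cacng7, an AMPA receptor auxiliary subunit, had region means of 116 to 164 and no call in a single region or strain, with wide ranges within a region, such as 102 to 319 (median 134) in the pituitary gland. Cacna2d4 was called in DBA/2J only (-0.69 ± 0.16, adjusted p = 0.00334), where 4 of 5 regions were lower.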

How the data were processed

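The authors made the deposited intensities from scanned Affymetrix 430 2.0 arrays by absolute analysis in TeraGenomics, with 1 background-corrected, scaled signal for each probe set, and the scaling target is not given in the sources used here. No further scaling was applied. Detection calls were not used here, so the background share of a signal is unknown. Precision is limited by how many arrays there are.

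Of 45037 probe sets, 34945 name a single gene by the platform annotation, 932 name several and 9160 none. Log2 of the floored signals was fitted in limma 3.58.1 (R 4.3.3) with 30 group means and a trended prior, and p values were Benjamini-Hochberg adjusted over 44065 probe sets, 972 others lying at the floor on every array. A gene was called at an adjusted p under 0.05, and shares over all genes use the brightest probe set of 17941 genes. The script was tested on simulated data. Errors are SE, and p values measure the spread between arrays, which may be partly technical. Replicate numbers were not treated as pairs. Correlations of deviations ran from -0.416 to 0.413 (median -0.0048) and were over 0.1 in 81 of 435 pairs of groups. Shared deviations of some arrays are therefore not excluded. In the bnst, replicate 1 pooled 2 mice and replicate 2 pooled 3 in every strain.

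Named in full are the 6 genes in each direction with the largest called difference in a region and the same sign in all 6 strains, 3 for each strain with the same sign in all 5 regions, and 6 by interaction, with 5 genes higher in the pag and 2 in DBA/2J because no more met the rule. The members, lists and tests were chosen with earlier results of these data known. Python 3.11.15, numpy 2.4.6, pandas 2.3.3, scipy 1.17.1 and matplotlib 3.10.9 served for the rest, and permutation tests of correlations were two-sided. Alternatives were other floors, scalings, prior and probe set choices, unlogged signals, a replicate block, no pituitary arrays and leaving out each array.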

Additional observations from a re-analysis of the deposited data

Results flagged for a closer look

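By the test of the difference itself (limma F test of the interaction), strain differences depended on the region for 6 of 35 channel genes. The share over all genes was 12.6%. No sample was singled out because the groups hold 2 or 3 arrays.

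Cacng3, an AMPA receptor auxiliary subunit, had the smallest value (adjusted p = 2.09e-05). In the pag its mean signal was highest in C3H/HeJ (294) and 129S6/SvEvTac (282) and lowest in DBA/2J (215), whereas in the bnst it was highest in DBA/2J (226) and lowest in FVB/NJ (136) and C3H/HeJ (159). In the pituitary gland the means ran from 5.71 to 31, around the floor of 12.78.

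Scn9a (adjusted p = 0.00498) had hypothalamic means of 121 in DBA/2J and 173 in A/J, but pag means of 113 in DBA/2J and 73.6 in A/J, and pituitary means from 5.62 in FVB/NJ to 57.4 in 129S6/SvEvTac. Cacng4 (adjusted p = 0.0174) was highest in A/J in the pag (401) and in C57BL/6J in the pituitary gland (144), with C3H/HeJ lowest in both (265 and 66.3). Scn2b (adjusted p = 0.0298) had pag means of 733 in FVB/NJ and 919 in C57BL/6J, and hippocampal means of 899.9 and 1012. Scn2a (adjusted p = 0.0417) had pituitary means of 119.5 in 129S6/SvEvTac and 74 in C57BL/6J, but hypothalamic means of 1078 and 1185. Cacng5 (adjusted p = 0.0447) had hippocampal means of 149 in A/J and 97.8 in 129S6/SvEvTac, and bnst means of 383 and 425, in the opposite order.

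The call of Cacng4 was lost without C57BL/6J pituitary gland 1 (adjusted p = 0.0509), that of Scn2b without FVB/NJ hippocampus 1 or 2, A/J pag 1 or FVB/NJ pag 2 (up to 0.0605), and those of Scn2a and Cacng5 in 35 and 42 of the 61 fits that left out 1 array (up to 0.126 and 0.121). Without the pituitary arrays, the call of Cacng3 was the only 1 of the 6 that held. The adjusted p of Scn9a was 0.291 with the floor at the 40th percentile, 0.156 with unlogged signals and 0.0707 with the mean over probe sets of a gene. Unlogged signals gave 0.22 for Cacng4, 0.21 for Scn2a and 0.0527 for Cacng5, and the mean over probe sets 0.874 for Cacng4 and 0.476 for Cacng5. With arrays scaled to the same median, Scn2b had 0.281 and Scn2a 0.134, and without a trend in the prior Scn2b had 0.061, Scn2a 0.076 and Cacng5 0.0584. Cacng3 kept its call under all of these.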

How the results depend on the processing

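Named were 59 region values, 17 strain values and 6 interactions. The 76 region and strain values kept their direction under every alternative run for them, except for 3 strain values with the mean over all probe sets of a gene: Cacna2d2 in C3H/HeJ became 0.0185, Cacna2d1 in DBA/2J -0.217 and Cacna1c in FVB/NJ -0.0187. The 12 values of the pituitary gland were not run without its arrays. Part of the kept directions was fixed in advance. Leaving out 1 or all of the pituitary arrays cannot change a brain region difference. The mean over probe sets cannot change the values of the 9 genes with 1 probe set. Apart from leaving out an array, 3 of 59 region values lost a call under some alternative, whereas 13 of 17 strain values lost a call or turned and 5 of 6 interactions lost theirs. The strain values lost calls or turned mostly with the mean over probe sets (10), unlogged signals (7) and no pituitary arrays (6). The counts of genes called in regions stayed within 1.5 times under every alternative run.

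The number of genes with a called interaction, 6, was 10 with the floor at the 40th percentile, 3 without a trend in the prior, 1 without pituitary arrays, and 3 (without A/J pag 1) to 12 (without C3H/HeJ hippocampus 1) on leaving out an array. In 129S6/SvEvTac the 9 called genes became 5 with arrays scaled to the same median and 4 with the mean over probe sets. In A/J the 5 became 3 with the higher floor, 3 with scaling, 1 with unlogged signals, 2 without pituitary arrays and 3 (without A/J hippocampus 2) to 6 on leaving out an array. In C3H/HeJ the 5 became 3 with unlogged signals, in C57BL/6J the 10 became 6 with quantile normalization, and in DBA/2J the 3 became 8 with scaling. With the replicate number as a replicate block, the 3 of DBA/2J became 5, the interaction count became 9 and none of the 82 calls was lost. The cause of these changes was not tested. The background share of each signal is unknown, and differences of genes near the floor are reduced in size by it.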
